A study of Mus musculus with 6 samples.

Results

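The 10 genes described here are ceruloplasmin (Cp) and 9 genes of cellular iron handling: the transferrin receptor Tfrc, the iron transporters Slc11a2 and Slc40a1, the ferrireductase Steap3, the ferritin subunits Fth1 and Ftl1, the iron sensors Aco1 and Ireb2, and the ferritin receptor Ncoa4. They were taken by symbol from a table of 22081 genes, and all 10 were present in it and passed the filter on low values. The set was proposed with results of the comparison between control and Taf4asKO cells already known, so the member values in that comparison are a description and carry no test. RNA was profiled in 3 control and 3 Taf4asKO libraries of muscle stem cells (MuSCs), which lie beneath the sheath of muscle fibres and repair them, and which were sorted straight from the tissue. The mice were C57BL/6 animals of 8 to 20 weeks. In Taf4asKO mice both Taf4a alleles carried loxP sites (Taf4a fl/fl), and tamoxifen activated a Cre recombinase (Pax7CreERT) that is made from the Pax7 gene and therefore acts in MuSCs. The control samples are titled WT and have Control as their genotype label, while the study's methods describe controls as littermates that also carried Taf4a fl/fl, with or without the Cre allele. Whether the controls of these libraries received tamoxifen is unclear: the study's genotype list names the treatment for Taf4asKO only, while a legend on body weight names it for both groups. Cells were sorted as negative for SCA1, CD45 and CD31 and positive for integrin-alpha7, or by a green reporter under Pax7 in animals that carried it. The study calls its replicates biological, but the sources used here do not tie each library to an animal, so the p-values given below measure the spread between these samples.

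Iron enters most cells bound to transferrin, which Tfrc takes into endosomes. There Steap3 reduces the ferric iron and Slc11a2 (DMT1) carries the ferrous iron into the cytosol. Iron that is not used is stored in ferritin, a shell of heavy chains (Fth1), which oxidize iron, and light chains (Ftl1), which help it mineralize. Ncoa4 delivers ferritin to lysosomes, where its iron is released again. Slc40a1 (ferroportin) is the known cellular iron exporter, and Cp is a copper-containing ferroxidase, secreted or held at the cell surface by a lipid anchor, that oxidizes the iron leaving through Slc40a1. Aco1 and Ireb2, the iron regulatory proteins, bind stem-loops called iron-responsive elements (IREs) when iron is scarce: binding in a 5' UTR blocks translation, and binding in a 3' UTR stabilizes the mRNA.

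The IREs are shown because they divide the 10 genes by a sequence feature. The set was chosen as iron genes, so finding IREs in it is a description and not an independent result. In the GENCODE M21 transcripts (mm10), UTRs were searched for CNNNNNCAGTGN with at least 4 of 5 base pairs between the letters before the loop and those after it. Each site is written 5' to 3' on the transcript strand, with the bulged C and the CAGTG of the loop in capitals.
Tfrc 3' UTR, chr16:32631219-32631247, plus strand: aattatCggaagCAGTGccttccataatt
Tfrc 3' UTR, chr16:32631598-32631626, plus strand: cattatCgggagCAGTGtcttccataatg
Tfrc 3' UTR, chr16:32631663-32631691, plus strand: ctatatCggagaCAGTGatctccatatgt
Tfrc 3' UTR, chr16:32631710-32631738, plus strand: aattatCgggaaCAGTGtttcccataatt
Slc11a2 3' UTR, chr15:100395153-100395181, minus strand: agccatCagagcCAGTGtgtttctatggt
Fth1 5' UTR, chr19:9982732-9982760, plus strand: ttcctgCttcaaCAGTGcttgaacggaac
Ftl1 5' UTR, chr7:45459779-45459807, minus strand: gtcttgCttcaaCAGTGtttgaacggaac
Slc40a1 5' UTR, chr1:45925465-45925493, minus strand: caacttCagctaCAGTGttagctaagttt
The Slc11a2 site had 4 of the 5 stem pairs and the other sites had all 5. The pattern was present in a 5' UTR of 0.651% of 20138 genes and in a 3' UTR of 3.64% of 20695 genes. These shares used a single representative transcript per gene, whereas all protein-coding transcripts of the members were searched, so they are not a like-for-like background. These letters were not found in the annotated UTRs of Cp, Steap3, Aco1, Ireb2 and Ncoa4. An IRE acts on translation or on mRNA stability, and RNA counts register the latter alone.

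In the 6 libraries, the totals of the deposited normalized counts (whole numbers that the authors obtained by scaling each library with a size factor) lay between 12338676 and 14551732, and the reads estimated behind them between 10.6 M and 17.6 M. All 10 MuSC markers passed the filter on low values. Markers of other cells passed it as well, so this does not show the identity of the sort. The summed normalized count of the MuSC markers was 40861 to 43015 in control and 41691 to 44113 in Taf4asKO libraries. Of the MuSC markers, 3 were called lower and 2 higher by the limits given below. The macrophage markers Ptprc, Adgre1, C1qa, C1qb and Mrc1 were not analysed here, and the other 4 summed to at most 953. The total over all Taf4 exons differed by 0.13 on the log2 scale (SE 0.12, 95% confidence interval -0.14 to 0.40), but it counts mainly exons outside the deleted stretch, so it does not check the labels, and the groups are named by their genotype labels. Of the 18562 genes tested, those averaging 5 or more normalized counts, 2347 (12.6%) met the calling limits, which were an adjusted p under 0.05 with limma on log2(normalized count + 1) and a fold change of at least 1.3. Of these, 1246 (6.71%) were lower and 1101 (5.93%) higher in Taf4asKO libraries. With the replicate number as a block, 3355 (18.1%) met the limits, and the higher genes rose in number to 1688 (9.09%). With each library left out in turn, 956 to 3096 genes met the limits.

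Cp was the member that differed most. Control replicates 1 to 3 had normalized counts of 3228, 3055 and 3316, whereas Taf4asKO replicates 1 to 3 had 1291, 1160 and 1142. Values are listed in this order throughout. The groups did not overlap, and the highest Taf4asKO library lay well below the lowest control library. The mean was 3200 ± 133 in control and 1198 ± 81.3 in Taf4asKO MuSCs (SD, n = 3 each), which was 2.67-fold lower in Taf4asKO. On the log2 scale the difference was -1.42 (SE 0.09, 95% confidence interval -1.63 to -1.21), and it lay between -1.47 and -1.39 with each library left out in turn, within the calling limits each time. In these bulk libraries fewer Cp-expressing cells and less Cp RNA per cell cannot be told apart. Its control mean exceeded that of 97.8% of the genes tested and its Taf4asKO mean that of 91.1%.

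**Figure D1:**
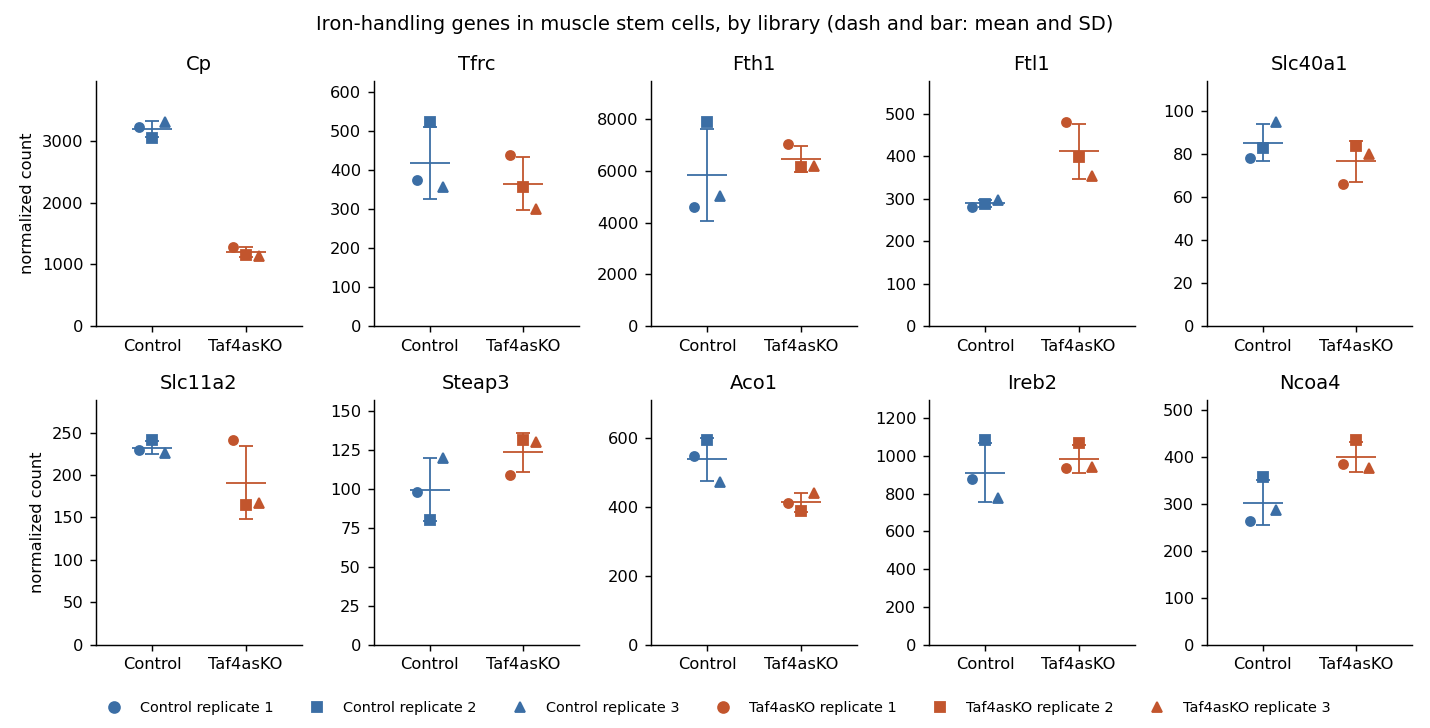
Normalized count (linear axes from 0, 1 panel per gene) of the 10 iron-handling genes in 3 control (blue) and 3 Taf4asKO libraries (orange), with the replicate given by the marker shape, the mean as a dash and the SD as a bar. For Cp all control libraries, from 3055 upwards, lie above all Taf4asKO libraries, from 1291 downwards, whereas the groups overlap for 6 of the 10 genes.

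The Cp gene lies at chr3:19957054-20009145 on the plus strand (mm10, protein-coding). Its exons share 108 of 9566 bases (1.13%) with Hps3 on the opposite strand. The authors left out reads that overlapped several genes, and the sources do not give the strand setting of their counting. Reads in the shared bases were therefore either left out or assigned by strand. None of the 75-base windows of the representative Cp transcript occurred in transcripts of another annotated gene.

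The RefSeq promoter table (GRCm38.p6, 250 bases before to 50 after a start) held 2 starts for Cp. The window of the downstream start held a TATAAA whose first base lay at -25 and a CCAAT at -118 relative to that start. On the reverse strand it also held TATAAA at -27, overlapping the first, and TTGCNNAA at -70. The forward matches are shown here with the motif in capitals because Cp carries the largest difference of the set. The 2 CCAAT boxes of Ftl1, at -78 and -34, are shown beside them because Ftl1 differed in the other direction. They lie on the reverse strand of the window and so read ATTGG.
Cp, chr3:19957212-19957240, plus strand: tgaagccctattTATAAAattgcttgctt
Cp, chr3:19957119-19957147, plus strand: ggtttaccagaaCCAATctgagttggaaa
Ftl1, chr7:45459948-45459976, minus strand: cctcagctccggATTGGtcaagtatactt
Ftl1, chr7:45459904-45459932, minus strand: acgccaccgccgATTGGttagtctcgggc
Windows were found for 8 of the 10 members (16 windows in all) and were searched on both strands, overlapping matches included, for 5 motifs. The TATA box, TATAAA, was present in 4 of the 16 and the CCAAT box in 5. The GC box, GGGCGG, was present in 8, the core of the antioxidant response element, TGACNNNGC, in 1, and a C/EBP-type site, TTGCNNAA, in 3. Over all 32851 windows of the table the shares were 13.6% for TATAAA, 37.4% for CCAAT, 35.7% for GGGCGG, 12.4% for TGACNNNGC and 10.8% for TTGCNNAA. The upstream window of Cp held none of the 5.

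The genes whose values followed those of Cp most closely were ranked by Pearson's r of log2(normalized count + 1) over the 6 libraries, with genes averaging under 50 left out. Because the libraries form 2 groups, this ranking favours genes that differ cleanly between the groups, and it is given as a description. The 5 highest were Hnrnpa1 (r = 0.998), which encodes an RNA-binding protein of splicing, the ubiquitin ligase gene Rnf157 (r = 0.998), the BMP co-receptor gene Rgmb (r = 0.997), the sarcoglycan gene Sgca (r = 0.997) and the histidyl hydroxylase gene Riox2 (r = 0.997). All 5 were lower in Taf4asKO libraries, with log2 differences of -0.77 for Hnrnpa1, -0.80 for Rnf157, -0.61 for Rgmb, -1.87 for Sgca and -0.69 for Riox2. Hnrnpa1, the closest, counted 2969, 2993 and 3032 in control and 1797, 1758 and 1726 in Taf4asKO libraries, so its groups did not overlap either.

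Lists of markers for other cells that a sort can contain are given beside the Cp values. The fibro-adipogenic list, for connective tissue progenitors of muscle, summed to 54195 to 80349 in control and 33487 to 55601 in Taf4asKO libraries. Its ranges overlapped. Of its 8 genes, 2 (Col3a1 and Cd34) were lower and none was higher, and the log2 difference was above 0 for the other 6. Col3a1 alone averaged 47012 in control and 15883 in Taf4asKO libraries, and so made up much of the sums. With the replicate block 5 genes of the list were also called higher, and its median gene lay above 0 (0.83 on the log2 scale). Schwann cell markers summed to 1307 to 3159 in control and 4017 to 4980 in Taf4asKO libraries, with 5 of 6 genes higher. Mural markers, for pericytes and vascular smooth muscle (9064 to 14020 against 13923 to 16199), had 2 of 4 genes higher. No gene was called among the 6 endothelial markers (879 to 1277 against 1392 to 1700), the 4 macrophage markers (432 to 556 against 681 to 953), the 6 erythroid markers (64 to 239 against 110 to 177) or the 6 myofibre markers (1243 to 3830 against 2129 to 2695). With the replicate block 2 endothelial genes and 1 macrophage gene were called higher. The mural genes called higher were then 3, and the MuSC markers called lower were 4. Control replicate 2 was the highest library for the erythroid and the myofibre list. Every one of the 22081 genes reached at least 4 in some library, so the lack of a marker at 0 in all libraries carries no information on these cells. The part of these cells in the Cp difference was not tested.

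**Figure D2:**
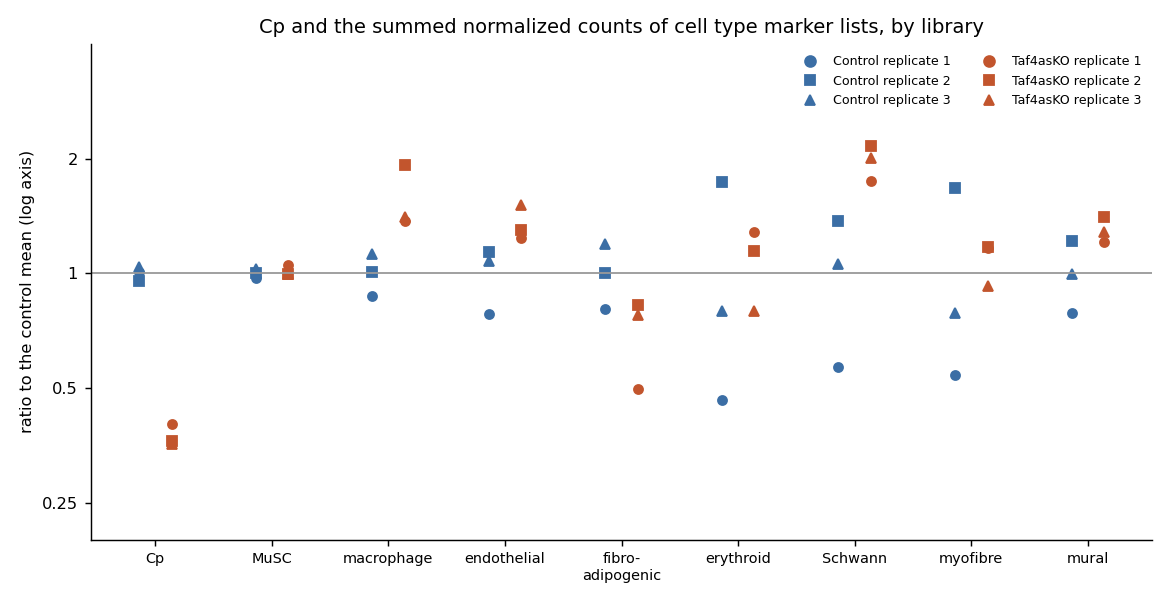
Ratio of each library to the control mean (log axis) for Cp and for the summed normalized count of 8 marker lists, 3 control (blue) and 3 Taf4asKO libraries (orange). The Cp ratios of the Taf4asKO libraries lie far below 1, the MuSC sums of all libraries lie near 1, and the Schwann sums of the Taf4asKO libraries, from 4017 upwards, lie above every control library.

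Of the ferritin subunits, Fth1 had the higher counts. Its control mean exceeded that of 99.2% of the genes tested, and the control mean of Ftl1 exceeded that of 69.0%. Fth1, at chr19:9982703-9985092 on the plus strand, counted 4609, 7901 and 5013 in control and 7050, 6148 and 6201 in Taf4asKO libraries. Control replicate 2 was the highest of the 6 libraries and the other 2 control libraries were the lowest, so the groups overlapped. Fth1 differed by 0.19 on the log2 scale (SE 0.18, 95% confidence interval -0.21 to 0.58), and without control replicate 2 it was 0.42 and met the calling limits.

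Ftl1, at chr7:45457944-45459884 on the minus strand, counted 281, 287 and 298 in control and 481, 399 and 354 in Taf4asKO libraries. All Taf4asKO libraries lay above all control libraries, with means of 288.7 ± 8.62 in control and 411.3 ± 64.4 in Taf4asKO MuSCs (SD, n = 3 each), a ratio of 1.42. The log2 difference was 0.50 (SE 0.14, 95% confidence interval 0.20 to 0.80). It met the calling limits with all 6 libraries, but not when the libraries were scaled to their totals (0.50) nor when any library other than control replicate 2 was left out (0.38 to 0.60 over the 6 leave-outs). The counts of Ftl1 rest on a small share of its transcript. Of its 894 windows of 75 bases, 758 (84.8%) also occurred in transcripts of 8 other annotated genes, among them the pseudogene Ftl1-ps1, and the authors removed reads that mapped to several places. The opposite-strand gene Gm10252 covers 355 of its 1340 exon bases (26.5%), and the miRNA gene Gm22133 lies within it on the same strand. For Fth1 the shared windows were 2.32%. The ferritin pseudogene Fth-ps2, the sole ferritin pseudogene row used here, counted from 14 to 34 per library.

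Along the uptake route no member separated the groups. Tfrc, at chr16:32608920-32632794 on the plus strand, counted 375, 523 and 355 in control and 437, 357 and 301 in Taf4asKO libraries, a log2 difference of -0.19 (SE 0.18, 95% confidence interval -0.59 to 0.21). The highest Tfrc library was control replicate 2, as for Fth1, and without it the log2 difference was -0.02. Slc11a2, at chr15:100387898-100423055 on the minus strand, counted 230, 241 and 226 in control and 241, 165 and 167 in Taf4asKO libraries, a log2 difference of -0.30 (SE 0.17, 95% confidence interval -0.68 to 0.07). Taf4asKO replicate 1 equalled the highest control library, and the other 2 Taf4asKO libraries lay below every control library. Slc11a2 exons share 402 of 6354 bases (6.33%) with the opposite-strand Gm5475. Steap3, at chr1:120224386-120272705 on the minus strand, counted 98, 80 and 120 in control and 109, 131 and 130 in Taf4asKO libraries, a log2 difference of 0.32 (SE 0.19, 95% confidence interval -0.11 to 0.76). For Steap3 control replicate 3 lay above Taf4asKO replicate 1, which was the only crossing between the groups.

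The exporter Slc40a1, at chr1:45908068-45925582 on the minus strand, was the member with the lowest counts. It counted 78, 83 and 95 in control and 66, 84 and 80 in Taf4asKO libraries, and the groups overlapped. This gave a log2 difference of -0.16 (SE 0.19, 95% confidence interval -0.58 to 0.27).

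The iron sensors and the ferritin receptor had smaller differences than Cp. Aco1, the cytosolic aconitase that becomes an iron regulatory protein when it loses its iron-sulfur cluster, lies at chr4:40143081-40198338 on the plus strand. It counted 549, 594 and 472 in control and 411, 388 and 442 in Taf4asKO libraries. All Taf4asKO libraries lay below all control libraries, with means of 538.3 ± 61.7 and 413.7 ± 27.1 (SD, n = 3 each). The log2 difference was -0.37 (SE 0.12, 95% confidence interval -0.65 to -0.10) and did not meet the calling limits. It did so under upper-quartile scaling (-0.41), under scaling without abundant genes (-0.39) and without control replicate 3 (-0.47).

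Ireb2, the other iron regulatory protein, which is controlled by degradation, lies at chr9:54863789-54912530 on the plus strand. It counted 876, 1083 and 777 in control and 939, 1070 and 943 in Taf4asKO libraries, with control replicate 2 the highest of all. Ireb2 differed by 0.12 on the log2 scale (SE 0.13, 95% confidence interval -0.17 to 0.41), and the groups overlapped.

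Ncoa4, at chr14:32159865-32179855 on the plus strand, counted 263, 356 and 287 in control and 385, 435 and 376 in Taf4asKO libraries. All Taf4asKO libraries lay above all control libraries, with means of 302.0 ± 48.3 and 398.7 ± 31.8 (SD, n = 3 each). Its log2 difference was 0.41 (SE 0.14, 95% confidence interval 0.10 to 0.72) and did not meet the calling limits, but it did with the replicate block (0.41), under scaling to library totals (0.41) and without control replicate 2 (0.53). Of the Ncoa4 windows of 75 bases, 41.4% also occurred in transcripts of Gm6768.

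In all, 2 of the 10 members met the calling limits, Cp lower and Ftl1 higher, beside 12.6% of all genes tested. The groups did not overlap for 4 members, Cp and Aco1 lower and Ftl1 and Ncoa4 higher, beside 33.0% of all genes tested (16.4% lower and 16.6% higher). The log2 difference was above 0 for 5 members and below 0 for 5, with a median of -0.02, and the median over all genes tested was 0.00. The members were chosen on this comparison, so nothing is read from these shares. With each library left out in turn, 1 to 4 members met the limits: 4 without control replicate 2, and 1 without control replicate 1 or without any of the 3 Taf4asKO libraries. Over all genes, 1489 were lower and 1607 higher of 18635 without control replicate 2, and 957 and 753 of 18512 without control replicate 1. Without Taf4asKO replicates 1, 2 and 3 they were 765 and 484 of 18594, 630 and 350 of 18652, and 595 and 361 of 18589.

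**Figure D3:**
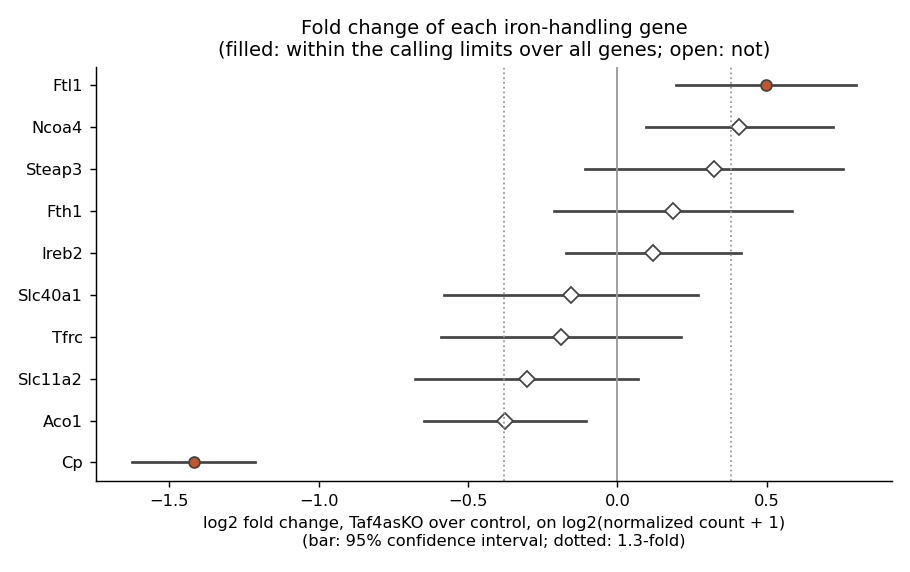
Log2 fold change (Taf4asKO over control) of the 10 genes on the log2(normalized count + 1) scale, with the 95% confidence interval as a bar and a fold of 1.3 in either direction as dotted lines. Cp, at -1.42, lies apart from the other 9 genes, which lie between -0.37 and 0.50.

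Levels of different genes were compared per kilobase of the representative transcript. In control MuSCs the order ran from Fth1 (3910 ± 1202) to Cp (794 ± 33.0), Ftl1 (298 ± 8.91), Ireb2 (158 ± 27.1), Aco1 (140 ± 16.1), Tfrc (85.4 ± 18.8), Slc11a2 (76.8 ± 2.57), Ncoa4 (74.3 ± 11.9), Slc40a1 (25.3 ± 2.59) and Steap3 (19.3 ± 3.88), each as mean normalized count per kilobase with its SD (n = 3). Neighbours whose libraries overlapped, and whose order is therefore not resolved, were Ireb2 with Aco1, Tfrc with Slc11a2, Slc11a2 with Ncoa4, and Slc40a1 with Steap3. In Taf4asKO MuSCs Ftl1 (425 ± 66.5) stood above Cp (297 ± 20.2) on this scale, and their libraries did not overlap. Fth1 remained highest at 4328 ± 339. Ncoa4 (98.1 ± 7.82) stood next to Aco1 (108 ± 7.07), with overlap, and above Tfrc (74.6 ± 14.0), but per kilobase of all annotated exons Tfrc stood above Ncoa4. The places of Ftl1 and Ncoa4 in both orders are uncertain, because 84.8% and 41.4% of their windows occur in other genes and multi-mapping reads were discarded, while the division used the whole transcript. The true Ftl1 level could therefore lie above that of Cp in control MuSCs too.

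**Figure D4:**
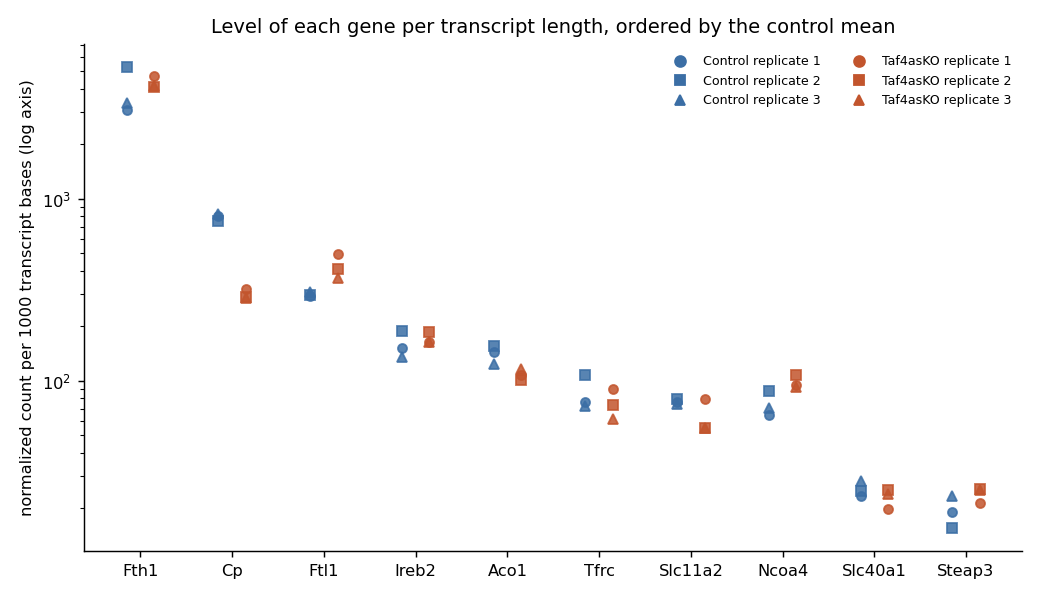
Normalized count per kilobase of the representative transcript (log axis) for the 10 genes in 3 control (blue) and 3 Taf4asKO libraries (orange), ordered by the control mean. Cp falls from near 794 in control to near 297 in Taf4asKO libraries, and the plotted height of Ftl1 is uncertain because 84.8% of its windows occur in other genes.

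Ratios within a library do not depend on its size factor. Per transcript length, Cp stood at 0.143 to 0.260 of Fth1 in control and at 0.0679 to 0.0700 of Fth1 in Taf4asKO libraries. Its ratio to Slc40a1 was 29.2 to 34.6 in control and 11.6 to 16.4 in Taf4asKO libraries. Neither pair of ranges overlapped. The ratio of Fth1 to Ftl1 was 10.6 to 17.8 in control and 9.50 to 11.3 in Taf4asKO libraries, with overlapping ranges and control replicate 2 the highest. The size of this ratio is uncertain, because far more of Ftl1 (84.8% of windows) than of Fth1 (2.32%) is shared with other genes. The ratio of Ireb2 to Aco1 was 1.06 to 1.21 in control and 1.42 to 1.83 in Taf4asKO libraries, without overlap.

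The wider pathway was followed in 8 lists of iron genes that are not members, with 85 distinct genes tested. Of these, 12 (14.1%) passed the threshold, 4 lower and 8 higher, beside 12.6% of all genes. With the replicate block 14 passed, 4 lower and 10 higher, beside 18.1% of all genes, and the 2 gained were a gene of uptake and a mitochondrial gene. The log2 difference was above 0 for 62.4% of the 85, beside 50.4% of all genes, and its median was 0.13 beside 0.00. The count of 12 rested on the libraries used: it was 19 without control replicate 2, and 3, 4 and 4 without Taf4asKO replicate 1, 2 and 3. The count over all genes moved as well. It was 1489 lower and 1607 higher of 18635 without control replicate 2. Without Taf4asKO replicate 1, 2 and 3 it was 765 and 484 of 18594, 630 and 350 of 18652, and 595 and 361 of 18589. Scara5 and Steap4 passed whichever library was left out, and the other 10 calls were each lost with at least 1 library left out. The p-values for single pathway genes are from limma, adjusted over all 18562 genes.

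The largest differences in the pathway lay among genes of iron uptake and carriers, where 1 of 14 fell, 2 rose and the list median was 0.31. Scara5, a scavenger receptor that binds ferritin, counted 436, 402 and 624 in control and 89, 226 and 160 in Taf4asKO libraries. It fell without overlap between the groups, by 1.69 on the log2 scale (SE 0.30, limma adjusted p = 0.00581). Steap4, a ferrireductase related to Steap3, counted 147, 306 and 317 in control and 613, 639 and 676 in Taf4asKO libraries, and it rose by 1.40 (SE 0.25, limma adjusted p = 0.00631). Slc22a17, described as a receptor for the siderophore-binding protein lipocalin, rose by 0.55 (SE 0.12, limma adjusted p = 0.0175). The most abundant uptake genes did not pass: Lrp1, a receptor for heme bound to hemopexin among many ligands, stood at 0.24 (SE 0.14), and the metal transporter gene Slc39a14 at 0.19 (SE 0.17). Scara5 and Steap4 are also found in connective tissue and vascular cells. Of the 8 fibro-adipogenic markers, 2 fell, but the log2 difference was above 0 for the other 6. The mural marker sum was 9064 to 14020 in control and 13923 to 16199 in Taf4asKO libraries, with overlap. The endothelial sum was 879 to 1277 in control and 1392 to 1700 in Taf4asKO libraries, without overlap. The part of these cells in the Scara5 and Steap4 differences was not tested.

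In the list of ferroxidases and copper supply, on which Cp activity depends, 1 of 7 genes rose and none fell, with a median of 0.21. Atox1, the copper chaperone that hands copper to the secretory pathway, counted 71, 86 and 66 in control and 112, 123 and 123 in Taf4asKO libraries, and it rose by 0.68 (SE 0.18, limma adjusted p = 0.0334). The call was kept in 1 of 6 leave-outs. The copper pump gene Atp7a stood at -0.08 (SE 0.10) and the copper importer gene Slc31a1 at 0.11 (SE 0.18). Heph, the membrane-bound ferroxidase related to Cp, counted 181, 204 and 163 in control and 153, 154 and 196 in Taf4asKO libraries, with overlap and a log2 difference of -0.13 (SE 0.16). It is named outside the naming rule, after its values were seen, because it is the ferroxidase most closely related to Cp among the genes tested.

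Among 15 iron regulators, 1 fell and 2 rose, with a median of -0.14. Epas1, the hypoxia-inducible factor whose own mRNA carries an IRE, counted 661, 1122 and 1086 in control and 1411, 1697 and 1679 in Taf4asKO libraries, and it rose by 0.77 (SE 0.19, limma adjusted p = 0.0236). Nfe2l2, the oxidative stress regulator that activates ferritin genes, counted 889, 902 and 829 in control and 1483, 1221 and 1114 in Taf4asKO libraries, and it rose by 0.53 (SE 0.12, limma adjusted p = 0.0172). Pcbp4, of the family that includes cytosolic iron chaperones, fell by 0.57 (SE 0.13, limma adjusted p = 0.0169). Erfe, a hormone that lowers hepcidin, was abundant, spread widely over libraries and shares 12.7% of its exon bases with the opposite-strand Ilkap. It counted 4085, 8632 and 3344 in control and 4603, 3376 and 3700 in Taf4asKO libraries. Its log2 difference of -0.35 (SE 0.29) became 0.06 without control replicate 2. Herc2, of an E3 ligase with a role in Ncoa4 turnover, stood at 0.30 (SE 0.10) and did not pass. Of the 7 other mRNAs with a known IRE, Epas1 alone passed and the median was 0.36. Cdc42bpa, a kinase gene in that list, stood at 0.37 (SE 0.09, limma adjusted p = 0.0241), short of the fold limit.

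Heme synthesis had 1 gene lower and 1 higher of 10, with a median of 0.21. The higher gene was Uros, which closes the tetrapyrrole ring. It counted 52, 63 and 63 in control and 112, 93 and 130 in Taf4asKO libraries, and it rose by 0.89 (SE 0.20, limma adjusted p = 0.0179). Fech, which inserts the iron, stood at 0.38 (SE 0.11, limma adjusted p = 0.0544), and Alas1, the first enzyme, at 0.14 (SE 0.17). None of the 6 genes of heme breakdown and transport passed, and their median was 0.19. The most abundant were the heme oxygenase gene Hmox2 at -0.11 (SE 0.17), which shares 40.2% of its exon bases with the opposite-strand Cdip1, and the heme transporter gene Slc48a1 at 0.27 (SE 0.19).

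Of 19 genes of mitochondrial iron and iron-sulfur clusters, 1 fell and 2 rose, with a median of 0.10. Iscu, the scaffold on which the clusters are built, counted 149, 153 and 137 in control and 255, 234 and 220 in Taf4asKO libraries, and it rose by 0.69 (SE 0.14, limma adjusted p = 0.0105). The Iscu groups did not overlap. Bola3, a factor in cluster transfer, rose by 0.59 (SE 0.14, limma adjusted p = 0.0224) and kept its call in 1 of 6 leave-outs. The abundant chaperone gene Hspa9 stood at 0.13 (SE 0.11). None of the 9 genes of cytosolic cluster assembly, which supplies Aco1 among others, passed, and their median was -0.08. Mms19, an adaptor for client proteins, stood at -0.07 (SE 0.11) and Ndor1, which supplies electrons, at -0.12 (SE 0.12). Ndor1 is annotated as overlapping gene models on the same strand, so its count is uncertain.

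**Figure D5:**
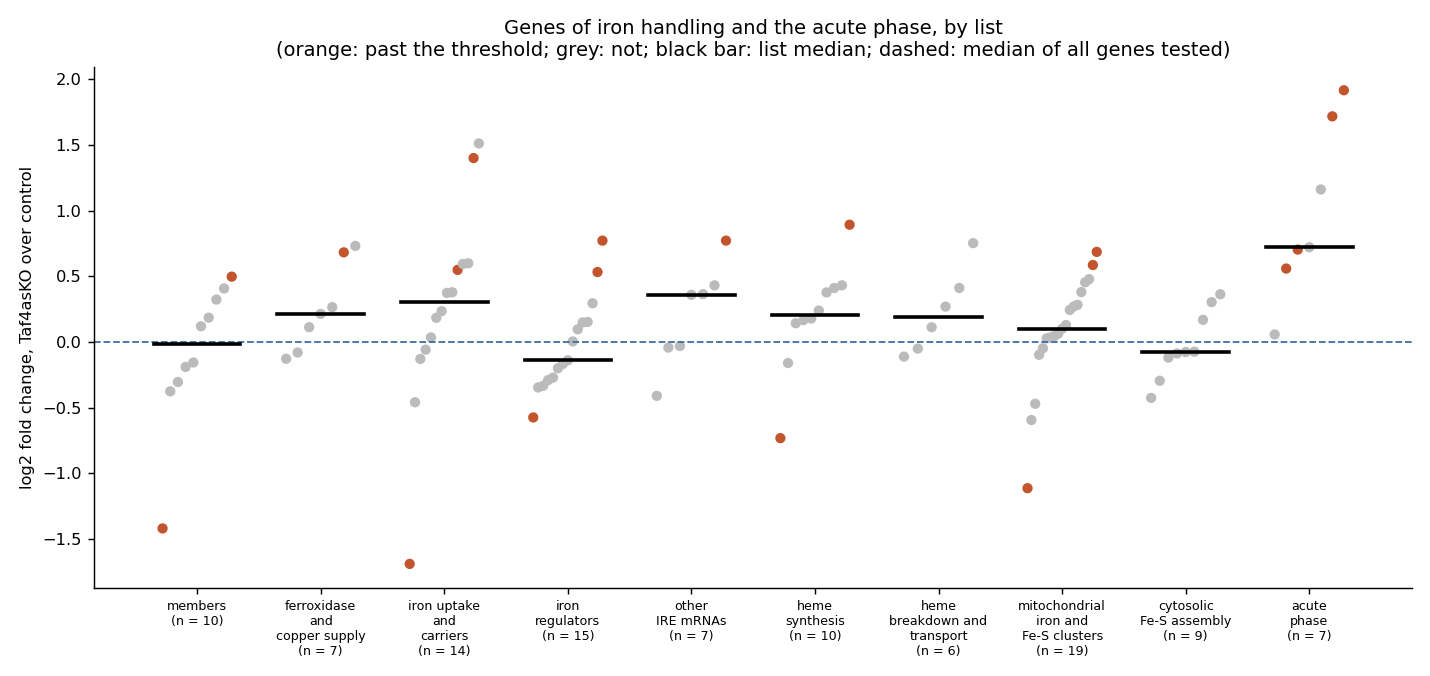
Log2 fold change (Taf4asKO over control) of each tested gene in the 10 members, 8 iron lists and the acute phase list, with genes past the threshold in orange, others in grey, the list median as a black bar and the median of all genes tested as a dashed line. List medians lie between -0.14 for iron regulators and 0.72 for the acute phase, while Cp, at -1.42, lies at the bottom of the members.

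Cp is also known as an acute phase gene, induced in liver by inflammatory cytokines, and genes of that response were listed for this reason. Of 7 tested, 4 rose and none fell, beside 5.93% higher and 6.71% lower among all genes, and the list median was 0.72. Of the 4 calls, that of Cebpd alone was kept with every library left out. Cebpd, a transcription factor induced by inflammation, counted 3627, 2907 and 4620 in control and 13435, 10094 and 12808 in Taf4asKO libraries. It rose without overlap, by 1.72 (SE 0.17, limma adjusted p = 0.000326). Its exons share 15.0% of their bases with the opposite-strand Spidr, and those of Cebpb 20.7% with Tmem189. Its relative Cebpb rose by 0.70 (SE 0.18, limma adjusted p = 0.0279), a call lost under scaling to library totals and without Taf4asKO replicate 1 or 2 (0.51 to 0.82 over the leave-outs). Socs3, a feedback inhibitor of cytokine signalling, rose by 0.56 (SE 0.13, limma adjusted p = 0.0211), a call kept in 2 of 6 leave-outs (0.42 to 0.64) and lost without control replicate 1 or 3 or Taf4asKO replicate 1 or 2. Serpina3n, a protease inhibitor, rose by 1.92 (SE 0.50, limma adjusted p = 0.0321) from low counts of 3, 2 and 9 in control to 19, 16 and 18 in Taf4asKO libraries. With a pseudocount of 5 in place of 1 its log2 difference was 1.295, and with 0.1 it was 2.185, both still called. The call was lost when any library other than control replicate 3 was left out (1.56 to 2.43 over the leave-outs). Complement C3 stood at 0.72 (SE 0.25, limma adjusted p = 0.0890) and passed with the replicate block (adjusted p = 0.0194). It was 0.95 and called without control replicate 3, and 0.42 without control replicate 1. The cytokine-activated factor gene Stat3 stood at 0.06 (SE 0.21). The summed markers of Schwann cells (1307 to 3159 against 4017 to 4980), macrophages (432 to 556 against 681 to 953), endothelial cells (879 to 1277 against 1392 to 1700) and mural cells (9064 to 14020 against 13923 to 16199) were higher in Taf4asKO libraries beside these genes, the mural ranges overlapping, and their part in the acute phase values was not tested.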

How the data were processed

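Total RNA of sorted MuSCs was sequenced in 6 libraries prepared with a stranded kit for small inputs. The study's methods and the submitters' processing notes state that the authors trimmed reads with Trimmomatic 0.39, aligned them to mm10 with STAR 2.6.0c, discarded multi-mapping reads, counted exon reads with featureCounts 1.6.0 without reads that overlapped several genes, and normalized with DESeq2 1.14.1. The deposited values are a score: reads scaled with the size factor of the library and given as whole numbers, so they are not raw counts and no count model was applied. The rounding follows from whole numbers left unused in some columns, and size factors of 0.858 to 1.33 were estimated from their spacing. Libraries of the same group always differed by more than sampling noise (chi-square per gene 4.54 to 41.8). Every value column belonged to a sample.

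Genes with a mean of at least 5 entered a test in limma 3.58.1 under R 4.3.3 (lmFit, eBayes with trend, two-sided) on log2(value + 1), with Benjamini-Hochberg adjustment over 18562 genes. Fold changes are on that scale, which understates low genes. A gene was called at an adjusted p under 0.05 and a fold of at least 1.3, the study's limits. A count test had been planned had the values been raw counts. The test was tried on simulated data. The members, the gene lists and the tests were chosen with earlier results of these data known. Named genes were the members, each list's called genes (at most 6), the 2 most abundant genes not called, and the 5 most like Cp, and results for some genes that the rule names are not reported here, although the list counts include them.

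Replicate numbers come from the sample titles. Deviations from the group means correlated between same-numbered libraries (0.235, 0.126 and 0.150) and from -0.149 to 0.014 between others. The sources used here do not say that same-numbered libraries were paired. Within a group of 3 the deviations sum to 0, so these weak correlations from the same data cannot settle it. A fit with the number as a block is therefore given only beside the fit without it. Alternatives were 3 scalings, other filters and pseudocounts (0.1 and 5), the block, limma-voom on estimated reads, a fold limit of 2, and leaving out each library. Transcripts, UTRs and exon overlaps came from GENCODE M21 and promoters from RefSeq; gene positions are those of the table, and 6 of the 10 members have the same position in GENCODE M21. IRE matches and shared windows are descriptions of letters. Figures were drawn with matplotlib 3.10.9. The SE of the members' log2 differences ran from 0.09 (Cp) to 0.19 (Steap3), with 3 libraries per group.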

Additional observations from a re-analysis of the deposited data

How the results depend on the processing

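Cp stayed within the calling limits and lower in Taf4asKO libraries under all 16 alternatives. Ftl1 no longer met the limits under scaling to library totals (0.50), Ncoa4 met them under that scaling (0.41) and with the replicate block (0.41), and Aco1 met them under upper-quartile scaling (-0.41) and scaling without abundant genes (-0.39). The replicate block changed no other call among the 10 members, and it brought the number of higher genes to 1688. A fold limit of 2 left 850 genes (520 lower, 330 higher) and 1 member. With each library left out in turn, the number of called genes was 956 to 3096 (lower 595 to 1489, higher 350 to 1607), called members were 1 to 4 and called iron pathway genes 3 to 19, lowest without a Taf4asKO library and highest without control replicate 2. Log2 differences then ranged from 0.38 to 0.60 for Ftl1, 0.036 to 0.42 for Fth1, -0.47 to -0.30 for Aco1 and 0.31 to 0.53 for Ncoa4. The members that were never called kept their sign, with ranges of -0.33 to -0.016 for Tfrc (nearest 0 without control replicate 2), 0.012 to 0.25 for Ireb2 (without control replicates 3 and 2), -0.22 to -0.052 for Slc40a1 (nearest 0 without Taf4asKO replicate 1), 0.18 to 0.47 for Steap3 and -0.48 to -0.21 for Slc11a2. The sign changed without control replicate 2 for Erfe (-0.62 to 0.063 over the leave-outs), Hmox2 (-0.27 to 0.00054) and Stat3 (-0.15 to 0.24), and without Taf4asKO replicate 1 for Alas1 (-0.016 to 0.30), Slc31a1 (-0.083 to 0.26) and Stat3, none of which was called. Of 449 values for 30 named genes other than members, 403 kept direction and side of the threshold, 36 lost the call, 4 gained it and 6 changed sign. The cause of these changes was not tested.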
